A study of Homo sapiens with 18 samples.

Results

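The H2Aub1 peak lists of A673 cells held 1931 narrow regions close to chromosome ends that shared no base with a RING1B or EWSR1-FLI1 peak. They were among 6408 H2Aub1 regions found in both replicates and were chosen by measured peaks, with all positions on the human build hg19. Overlapping peaks of H2Aub1 replicates 1 and 2 were merged, and a merged region was kept where it held a peak of each replicate. A member was autosomal, 5 kb wide or less, centred within 10 Mb of either end of its chromosome, and shared no base with any RING1B peak of either replicate or with an EWSR1-FLI1 peak. The narrow regions chosen in the same way but centred farther from the ends, called narrow regions inside arms here, numbered 2908 and are set beside the members where a difference is described. Position, width, peak calls and freedom from RING1B and EWSR1-FLI1 peaks were what selected the members, so their values are descriptions without a test.

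A673 is a Ewing sarcoma cell line that carries EWSR1-FLI1, the fusion transcription factor that drives this tumour. The chromatin immunoprecipitation lists used here came from untreated A673 cells: H2Aub1 (n = 2), RING1B (n = 2) and EWSR1-FLI1 (n = 1), each in cells with no knockdown. The series names 13 further samples (inputs, BMI1, CBX7 and the cells with the shCTRL or shRING1B hairpin) that were not analysed here. All groups are 1 cell line, nothing in the labels says that replicates came from separate cultures, and the read depth behind each list is unknown. The label of the EWSR1-FLI1 antibody gives a catalogue name and no target.

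RING1B is the ubiquitin ligase subunit of Polycomb repressive complex 1, and it places a single ubiquitin on histone H2A. The resulting mark, H2Aub1, is best known from broad domains over silenced developmental genes, where RING1B is bound, but it is also found at lower levels along much of the genome, where the ligase visits briefly. The outer parts of human chromosome arms are known for many Giemsa-negative bands, the light bands that are rich in GC and in genes, whereas Giemsa-positive bands are darker, richer in AT and poorer in genes.

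The 2 H2Aub1 lists were of unequal size, 26423 peaks for replicate 1 against 10268 for replicate 2. RING1B was called at 2573 and 3945 sites in its replicates and EWSR1-FLI1 at 2145. Merging gave 28121 H2Aub1 regions in all, of which the 6408 with a peak of each replicate included 6067 on autosomes. Of the autosomal ones, 5324 were narrow and 743 were wider than 5 kb. The outer 10 Mb windows held 2040 of the narrow ones, and 109 of these were left out because they shared a base with a RING1B peak (93 regions) or an EWSR1-FLI1 peak (36 regions), 20 of them with both. RING1B replicate 2 touched 84 of those 109 and replicate 1 touched 33, with 24 touched by both. Over all autosomes, 4839 of the 5324 narrow regions were free of RING1B and EWSR1-FLI1 peaks, against 1931 of the 2040 in the outer windows. The members made up 30.1% of all regions found in both replicates and covered 4.36 Mb. The number depended on the lists: replicate 2 used alone gave 3526 end-near regions and replicate 1 alone 8353, the highest-scoring 50% of each list gave 1018, and a width limit of 2 kb gave 961.

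Members were spread over all 39 autosomal ends that have euchromatin in their outer 10 Mb, but very unevenly. The 5 fullest ends were 17q with 164 members, 20q with 125, 8q with 124, 9q with 114 and 1p with 112, which is 16.4 to 11.2 members per Mb. These 5 ends held 639 members, 33.1% of the total, the 10 fullest held 1124 (58.2%), and 9 ends were enough for 50%. The 5 emptiest ends were 1q and 5q with 1 member each, 3p with 3, 18p with 4 and 9p with 6. The median end held 36 members, and the 8 ends with 10 members or fewer held 41 between them. After the 5 fullest ends came 4p with 109 members, 11p with 106, 16q with 101, 19p with 94 and 14q with 75. The short arms of chromosomes 13, 14, 15, 21 and 22 have no euchromatic band in the table used and held no member.

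**Figure D1:**
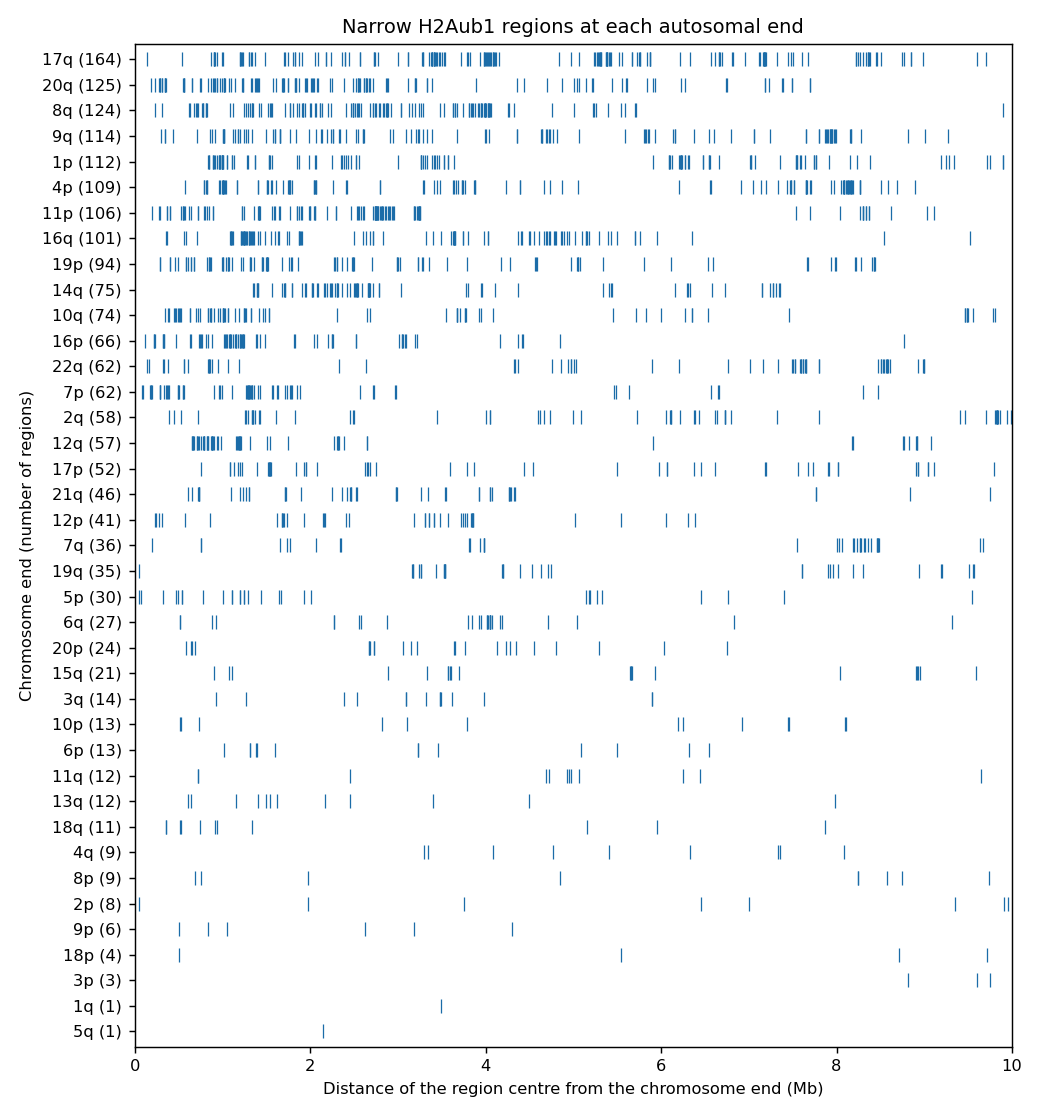
Position of every narrow H2Aub1 region by the distance of its centre from the chromosome end in Mb (x axis), 1 row for each of the 39 autosomal ends, ordered by number of regions (in parentheses). Rows run from 164 regions at 17q to 1 region at 1q and 5q, and marks are densest in the first 4 Mb.

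The ends of the same chromosome often differed widely. Among the 17 chromosomes with both ends counted, 11 had at least a 3-fold difference between their ends and 5 at least a 10-fold one. Chromosome 1 had 112 members at the p end and 1 at the q end, chromosome 5 had 30 and 1, chromosome 9 had 6 and 114, chromosome 8 had 9 and 124, and chromosome 4 had 109 and 9. The side was not fixed: 11 chromosomes had more members at the q end and 6 at the p end. The 22 q ends held 1179 members (61.1%), or 53.6 per end, and the 17 p ends held 752, or 44.2 per end.

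The outer 10 Mb windows had a higher density of narrow regions than the rest of the arms. They hold 14.7% of the euchromatic autosomal length and held 39.9% of the narrow regions free of RING1B and EWSR1-FLI1 peaks (Wilson 95% interval 38.5 to 41.3%, a measure of counting error alone that treats clustered regions as independent). That is 4.95 members per Mb, against 1.28 narrow regions per Mb inside arms, a ratio of 3.87. The density was higher in the outer part on 21 of 22 autosomes, with ratios between 0.584 on chromosome 18 and 18.2 on chromosome 4 and a median of 2.92, and in 28 of 39 arms taken singly. The 11 arms that went the other way were 19q, 10p, 6p, 11q, 8p, 2p, 9p, 18p, 3p, 1q and 5q. By chromosome, the members per Mb of outer window were highest on chromosome 17 (10.8), 16 (8.35) and 14 (7.50) and lowest on 18 (0.750), 3 (0.850) and 13 (1.20).

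The wide H2Aub1 regions and both complete lists had similar shares near the ends, and the RING1B and EWSR1-FLI1 lists did not. Of the 743 wide autosomal regions, 277 (37.3%, 33.9 to 40.8%) were centred in the outer windows. The same windows held 36.9% of all autosomal H2Aub1 peaks of replicate 1 and 38.4% of those of replicate 2. RING1B had 12.2% of its autosomal peaks there in replicate 1 (11.03 to 13.6%) and 16.2% in replicate 2 (15.1 to 17.4%), and EWSR1-FLI1 had 12.8% (11.4 to 14.3%). The shares of RING1B replicate 1 and of EWSR1-FLI1 lay somewhat below the share of euchromatic length, 14.7%. That of RING1B replicate 2 lay somewhat above it, so the 2 RING1B lists differed from it in opposite directions.

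H2Aub1 peaks that were called in 1 replicate only took no part in choosing the members, and they were placed along the chromosomes in much the same way, counted here whether or not they touched RING1B or EWSR1-FLI1. Of 17131 narrow autosomal peaks seen in replicate 1 alone, 6184 lay in the outer 10 Mb (36.1%, 35.4 to 36.8%), and of 2115 seen in replicate 2 alone 797 did (37.7%, 35.6 to 39.8%). Those in the outer windows had a median width of 984 bp and a median score of 76.1 in replicate 1, and 860 bp and 61.6 in replicate 2. The members' own peaks were wider, with medians of 1811 and 1210 bp in replicates 1 and 2. Their highest peak scores had medians of 177 and 85.9. Members were chosen for a peak in both replicates, so the 2 sets differ by that choice. Of the single-replicate peaks in the outer windows, 68.3% in each replicate lay within 5 Mb of the end, where 71.3% of the members lay. A member stood within 50 kb of 69.1% of the replicate 1 peaks and of 70.5% of the replicate 2 peaks. The share for other positions at the same ends was not worked out. Both sets come from the same 2 libraries as the members, so they are other peaks and not other samples.

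Across the 39 ends, the number of members went with the number of these single-replicate peaks and much less closely with the number of RING1B peaks. Spearman's rho was 0.978 for replicate 1 peaks (Pearson's r 0.965) and 0.928 for replicate 2 peaks (r 0.930), and 0.869 for wide H2Aub1 regions (r 0.820). For RING1B it was -0.34 in replicate 1 (r -0.37) and 0.281 in replicate 2 (r 0.312), of opposite sign in the replicates, and for EWSR1-FLI1 -0.23 (r -0.28). The ends are 39 windows of equal length read from the same lists, so these are descriptions. The end of 17q, with 164 members, had 627 and 265 H2Aub1 peaks in replicates 1 and 2 but 4 and 20 RING1B peaks, and 20q had 605 and 262 H2Aub1 peaks but 3 and 12 RING1B peaks. Other full ends had many RING1B peaks in replicate 2. The end of 19p, with 94 members, had 4 and 33 RING1B peaks, the most of any end in replicate 2, and 8q, with 124 members, had 6 and 28. At 11q, with 12 members, RING1B had 18 and 23 peaks, and at 3q, with 14 members, 18 and 27. At 1q and 5q both kinds were few, with 16 and 5 H2Aub1 peaks and 6 and 6 RING1B peaks at 1q, and 15 and 2 H2Aub1 peaks and 3 and 4 RING1B peaks at 5q. Of the 10 ends with most members, 9 were among the 10 with most single-replicate peaks in either replicate, whereas 2 and 5 were among the 10 with most RING1B peaks in replicates 1 and 2.

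**Figure D2:**
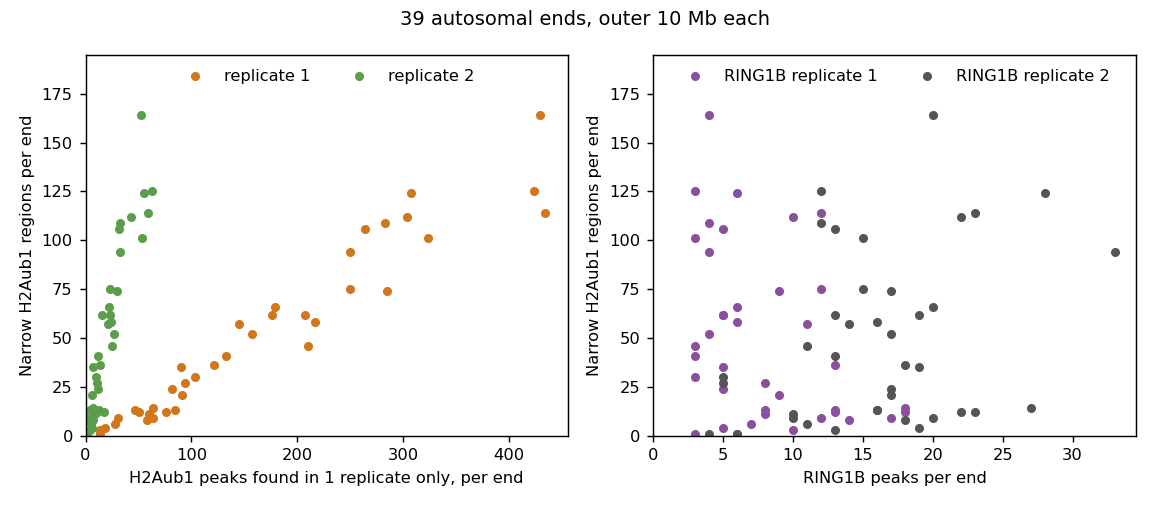
Number of narrow H2Aub1 regions in the outer 10 Mb of each of 39 autosomal ends (y axis, 1 point per end and replicate) against H2Aub1 peaks found in 1 replicate only (left) and RING1B peaks (right) in the same window. The H2Aub1 points climb together (rho 0.978 and 0.928), and the RING1B points do not line up (rho -0.34 and 0.281).

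Density fell off steeply from the end inwards and changed little beyond 12 Mb. Narrow regions stood at 9 per Mb in the first 2 Mb, 6.77 between 2 and 4 Mb, 3.46 between 4 and 6 Mb, 3.05 between 6 and 8 Mb and 2.47 between 8 and 10 Mb. Beyond the 10 Mb limit density was 2.36 per Mb between 10 and 12 Mb, and from 12 to 30 Mb it lay between 1.05 and 1.77 per Mb, with 1.11 beyond 30 Mb. In windows of 1 Mb the course was less even. The peak was not at the very end, with 409 members between 1 and 2 Mb against 293 in the outermost Mb, and the last Mb before the limit was low, with 60 members between 9 and 10 Mb against 133 between 8 and 9 Mb and 95 equally chosen regions between 10 and 11 Mb. Assembly gaps and how well reads map were not taken into account in these windows. The median member was centred 2.89 Mb from its end (quartiles 1.35 and 5.53 Mb), and 1376 members (71.3%) lay within 5 Mb.

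Peaks of 1 replicate only followed the same course, with 24.2 per Mb in the first 2 Mb, 8.06 between 8 and 10 Mb and 4.11 beyond 30 Mb in replicate 1, and 2.97, 1.04 and 0.50 per Mb in replicate 2. RING1B did not, staying between 0.603 and 1.15 peaks per Mb in replicate 1 and between 1.08 and 1.96 in replicate 2 over all distances, and EWSR1-FLI1 stayed between 0.513 and 1.01. The lowest RING1B replicate 1 density and the highest RING1B replicate 2 density were both in the outermost 2 Mb, so the 2 RING1B lists do not show the same course there. The outermost 2 Mb also had the highest median scores of the members, 196 in replicate 1 and 89.9 in replicate 2, against 147 and 78.8 between 4 and 6 Mb. Farther in, scores did not keep falling: narrow regions between 20 and 22 Mb had a higher median in replicate 1, 224, and 86.8 in replicate 2.

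**Figure D3:**
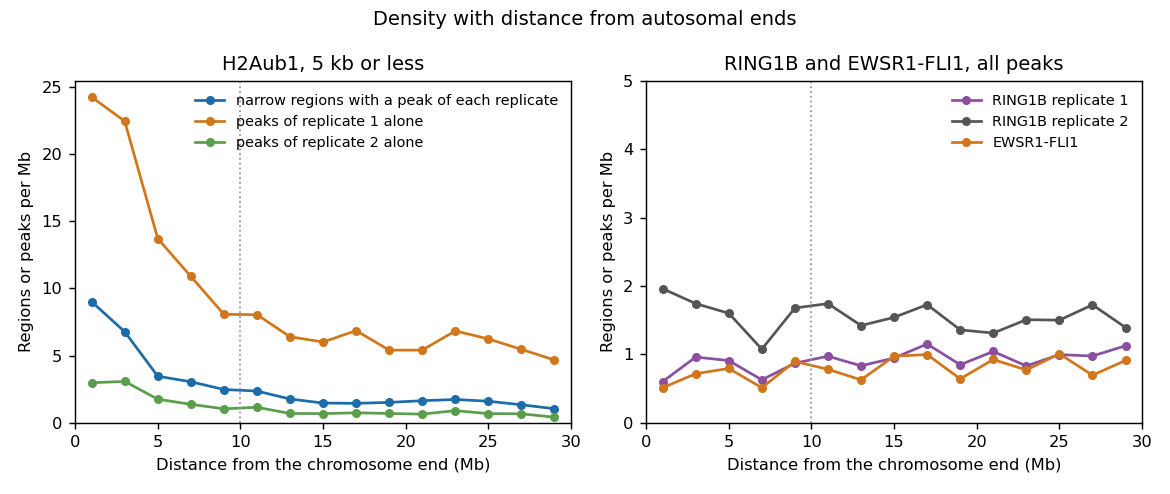
Peaks or regions per Mb of euchromatin (y axes) in 2 Mb bins by distance from the autosomal end in Mb (x axes), for narrow H2Aub1 (left) and for all RING1B and EWSR1-FLI1 peaks (right). Narrow H2Aub1 regions stand at 9 per Mb at the end and 2.47 per Mb at the dotted 10 Mb limit, while RING1B and EWSR1-FLI1 stay under 2 per Mb throughout.

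Few members lay at the very tip of a chromosome, and 6 were centred within 100 kb of an end, with assembly gaps and mapping again not taken into account. The 3 outermost, picked for their position after their values were seen, were in 2p25.3 (chr2:45098-47040, centred 46.1 kb from the end, scores 228 and 88.5 in replicates 1 and 2), 19q13.43 (chr19:59072906-59075730, 54.7 kb, scores 420.0 and 112) and 5p15.33 (chr5:53947-55884, 54.9 kb, scores 193 and 149). The single member of 1q was in 1q44 (chr1:245761216-245762504, scores 114 and 93.3) and that of 5q in 5q35.3 (chr5:178770150-178771890, scores 161 and 63.6).

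Most members lay in the light, Giemsa-negative bands. Such bands held 1614 of the 1931 members, 83.6% (81.9 to 85.2%), and make up 62.7% of the euchromatic length of the outer windows. Inside arms they held 1751 of 2908 narrow regions, 60.2% (58.4 to 62.0%), and make up 43.0% of the length. Members stood at 6.60 per Mb in Giemsa-negative bands, 2.97 in the palest positive class (gpos25), 2.55 in gpos50, 0.449 in gpos75 and 0.497 in the darkest (gpos100). Inside arms the densities were 1.79 per Mb in Giemsa-negative bands, 2.35 in gpos25, 1.09 in gpos50, 0.708 in gpos75 and 0.329 in gpos100. The share in Giemsa-negative bands was 23.4 percentage points higher among members (Newcombe 95% interval 20.9 to 25.8 points, counting error only). The length in such bands was also larger in the outer windows, 62.7% against 43.0%. In members and inside arms alike, the share of regions was above the share of length. The difference of 23.4 points is not corrected for length, and shares corrected for length were not compared. Single-replicate peaks of the outer windows lay there in 80.2% of cases in replicate 1 and in 78.5% in replicate 2.

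Of 128 euchromatic bands that reach into the outer windows, 111 held a member. The 10 fullest bands held 782 members (40.5%) in 50.6 Mb, all 10 were Giemsa-negative, and each was the outermost band of its arm. They were 8q24.3 (123 members, 19.03 per Mb), 17q25.3 (118, 20.02), 20q13.33 (97, 21.0), 19p13.3 (82, 11.9), 11p15.5 (69, 24.6), 16p13.3 (65, 8.23), 4p16.3 (61, 13.6), 9q34.3 (58, 15.2), 10q26.3 (57, 11.6) and 7p22.3 (52, 18.6). Across all ends, the outermost band held 1233 members (63.9%). The band 11p15.5, densest of these 10, is known for its clusters of imprinted genes, and whether members lie inside them was not examined. The 17 bands without a member included 3p26.1 (4.70 Mb of it in the window), 1q43 (4.45 Mb), 5q35.2 (3.8 Mb) and the Giemsa-negative 9p24.1 (4.40 Mb).

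The gene under each region was not analysed here, because the gene table at hand is of another genome build than the peaks. By whole chromosome, protein-coding genes per Mb (GRCh38 gene counts over hg19 lengths) went with members per Mb of outer window with a rho of 0.592 over 22 autosomes (r 0.505, and 0.593 without the 2 chromosomes farthest from the median gene density). For narrow regions inside arms rho was 0.728 (r 0.796, and 0.653 without those 2). Chromosome 19, with 24.5 protein-coding genes per Mb, had 6.45 members per Mb of outer window and 4.08 narrow regions per Mb inside arms. Chromosome 4, with 4.03 genes per Mb, had 5.90 and 0.324, the highest ratio of outer to inner part among the autosomes.

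Members came in close groups. The median distance from a member to the nearest other member, edge to edge, was 7.73 kb (quartiles 1.03 and 32.6 kb), against 35.6 kb between narrow regions inside arms (2.36 and 235 kb). Another member lay within 50 kb of 1564 members, 81.0% (79.2 to 82.7%), and another such region lay within 50 kb of 1584 narrow regions inside arms, 54.5% (52.7 to 56.3%), a difference of 26.5 percentage points (24.0 to 29.0). These intervals cover counting error alone and treat regions as independent, although neighbours count for each other. A member had no other within 500 kb in 56 cases (2.90%), against 423 (14.5%) inside arms. A higher density by itself shortens the distance between neighbours, and spacing at equal density was not tested. The distances depended on how many peaks enter: the median distance was 1.33 kb with the replicate 1 list alone, 2.70 kb with the replicate 2 list alone, 20.3 kb with the highest-scoring 50% of each list and 32.1 kb with a 2 kb width limit. In each list alone the end-near peaks were still the closer ones, with 94.9% against 83.8% inside arms within 50 kb in replicate 1, and 89.3% against 72.7% in replicate 2.

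**Figure D4:**
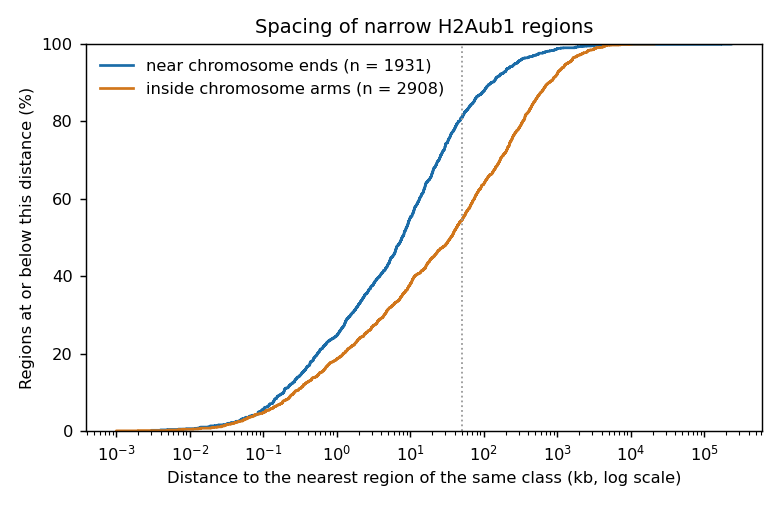
Cumulative share of regions (y axis, %) by the distance to the nearest region of the same class (x axis, kb, log scale), for 1931 narrow regions near chromosome ends and 2908 inside arms. At the dotted 50 kb line the curves stand at 81.0% near ends and 54.5% inside arms.

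Between neighbours along an end, the median gap was 24.9 kb (quartiles 4.52 and 104 kb), against 156 kb (13.7 and 678 kb) inside arms, and 260 of 1892 gaps (13.7%) were under 1 kb, against 289 (10.1%) inside arms. Joining members with gaps of 50 kb or less gave 363 runs, and 367 members (19.01%) stood alone, against 1324 (45.5%) inside arms. Runs of 5 members or more held 910 members (47.1%), against 428 regions (14.7%) inside arms. Runs of 10 or more numbered 26, at 15 ends, and held 391 members (20.2%), against 7 runs with 87 regions (2.99%) inside arms.

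The fullest run had 27 members over 328 kb of 12q24.33 (chr12:132868576-133196969), with a median score of 224 in replicate 1 (52.6 to 798) and 110 in replicate 2 (56.4 to 503). The next had 24 members over 235 kb of 11p15.5 (chr11:2719216-2953914), with medians of 221 and 105 in replicates 1 and 2. The run of 23 members in 1p36.33 covered 296 kb (chr1:840572-1136907), with medians of 295 and 109. It was the only one of these to hold RING1B peaks between its members, 2 of replicate 1 and 4 of replicate 2. A run of 22 members lay in 8q24.3 (258 kb, chr8:142297096-142554823, medians 215 and 85.1). Runs of 20 members each lay in 16p13.3 (226 kb, chr16:1021139-1247025, medians 187 and 101) and 16q24.3 (270 kb, chr16:88870626-89140545, medians 162 and 71.5). Every one of these 6 runs held members close to the score floor of 50 as well as strong ones, their lowest scores being between 52.6 and 68.1 for replicate 1 and between 50.17 and 56.5 for replicate 2. The 12q24.33 run alone of the 6 held an EWSR1-FLI1 peak, and it held 1.

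Peaks took up a minor part of most runs. Members covered 11.5 to 39.1% of the length of the 26 runs of 10 or more (median 17.3%), replicate 1 peaks 15.1 to 58.0% (median 33.1%) and replicate 2 peaks 7.25 to 37.5% (median 16.4%). Of the 1201 gaps inside runs, 697 (58.0%) held a further peak of replicate 1, 277 (23.1%) a further peak of replicate 2, and 486 (40.5%) no H2Aub1 peak of either. Of the 26 runs, 18 held no RING1B peak, 6 held RING1B peaks of both replicates, and 4 held an EWSR1-FLI1 peak. The outer windows as a whole, with 390 Mb of euchromatic bands, held 310 RING1B peaks of replicate 1 and 629 of replicate 2. How often other stretches as short as these runs held such a peak was not worked out. Peaks per Mb in runs and in the outer windows were not compared either. The counts therefore do not say whether runs were poor or rich in RING1B or EWSR1-FLI1. The most crowded run, singled out after its values were seen, had 10 members in 72.5 kb of 11p15.4 (chr11:3181706-3254166), or 13.8 per 100 kb.

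Members were about as wide as narrow regions inside arms. The median width was 2007 bp (quartiles 1484.5 and 2888 bp, range 695 to 4999 bp), against 1983 bp inside arms. A member held exactly 1 peak of each replicate in 1612 cases (83.5%), against 2503 (86.1%) inside arms. The replicate 1 peak was the wider in 80.7% of members, with a median width of 1811 bp against 1210 bp in replicate 2, and the replicate 2 peak usually lay inside it, with a median of 96.0% of its length shared. At the 25 ends with 20 members or more, median widths ran between 1628 bp at 6q and 2581 bp at 20p.

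Peak scores are the authors' own, on a scale that is not given, with a lowest value near 50 in each list. The median member had a highest peak score of 177 in replicate 1 (quartiles 99.8 and 298, range 50.06 to 1538) and 85.9 in replicate 2 (64.1 and 130, range 50.06 to 781). Narrow regions inside arms had medians of 165 (quartiles 101 and 292) and 83.0 (63.1 and 120.2), and the 109 end-near regions left out for RING1B or EWSR1-FLI1 had 229 and 103. The quartile ranges of members and of narrow regions inside arms overlapped almost wholly. The 2 replicates ranked members alike in part (rho 0.515, r 0.636 over 1931 members, which share their libraries). A member lay above the 75th percentile of both lists in 491 cases (25.4%), against 614 (21.1%) inside arms, a difference of 4.31 percentage points (1.89 to 6.77). Many members scored low, and 484 (25.1%) were under 100 in replicate 1 and 1171 (60.6%) in replicate 2. Scores were higher in wider members, with medians of 66.3 and 60.7 in replicates 1 and 2 for the 72 members up to 1 kb, 113 and 72.8 for the 889 from 1 to 2 kb, 232 and 97.8 for the 528 from 2 to 3 kb, 356 and 128 for the 296 from 3 to 4 kb, and 549 and 154 for the 146 from 4 to 5 kb.

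**Figure D5:**
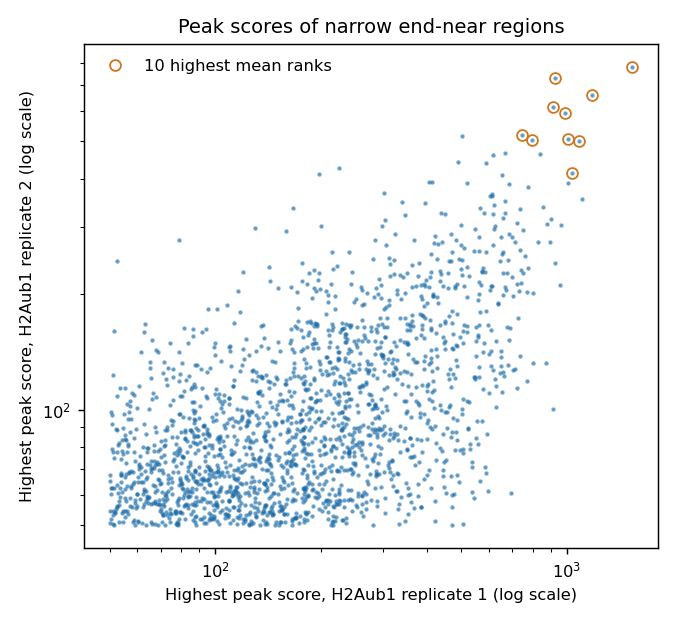
Highest peak score of each of 1931 narrow end-near regions in H2Aub1 replicate 1 (x axis) and replicate 2 (y axis), both on log scales, with the 10 of highest mean rank circled. The cloud is densest near the floor of 50 in replicate 2, and the circled regions score from 744 to 1538 in replicate 1 and from 414 to 781 in replicate 2.

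The 10 members with the highest mean rank of both scores lay at 7 ends, were 3446 to 4936 bp wide and were all in Giemsa-negative bands. The first was a region of 4437 bp in 7p22.3 (chr7:559425-563861), 0.562 Mb from the end, with scores of 1538 in replicate 1 and 781 in replicate 2. Band 11p15.5 held the second (chr11:2289238-2294064, scores 1178 and 659) and the fourth (chr11:277817-282365, 991 and 591). Band 17q25.1 held the third (chr17:74070126-74074467, 926 and 730) and the seventh (chr17:72854252-72859187, 1010.0 and 506). These 5 regions had no RING1B peak nearer than 43.9 kb. The fifth was in 10p15.3 (chr10:526175-530437, 914 and 615), an end with 13 members in all, and its nearest RING1B peak was 2145 kb away. The sixth was in 1p36.31 (chr1:6477760-6482347, 1086 and 501), the eighth in 12q24.33 inside the run of 27 members (chr12:132904266-132907711, 798 and 503), and the tenth in 10q26.3 (chr10:135042322-135046202, 1035 and 414). The ninth, in 7p22.1 (chr7:5457687-5462457, 744 and 518), was the only one close to a RING1B peak, 1.13 kb away. Each of the 10 held 1 peak of each replicate, and in 9 of them another member lay 14.1 kb away or less, against 28.0 kb for the ninth-ranked.

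Regions lay close to the limits of 5 kb and 10 Mb on both sides. The widest members were 4999 bp in 20q13.33 (chr20:61338229-61343227, scores 659 and 316) and 4995 bp in 15q26.2 (chr15:96884652-96889646, 567 and 65.3). The nearest left out were 5026 bp in 1p36.31 (chr1:6482700-6487725, 1026 and 259) and 5033 bp in 10q26.3 (chr10:133847871-133852903, 406 and 124). The first of these lay 0.352 kb from the sixth-ranked member. The windows held 146 members of 4 to 5 kb and 96 equally free regions of 5 to 6 kb. At the distance limit, 60 members lay between 9 and 10 Mb and 95 regions between 10 and 11 Mb from an end, so the count was higher just outside it. The members farthest in were 9.98 Mb from the end in 2q37.1 (chr2:233215428-233217744, 248 and 190) and 9.96 Mb in 2p25.1 (chr2:9954513-9955558, 82.2 and 61.1). The first regions beyond it were 10.02 Mb from the end in 19p13.2 (chr19:10022713-10025106, 251 and 134) and 10.03 Mb in 17q25.1 (chr17:71159080-71162558, 422 and 81.7).

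Members were a little farther from RING1B peaks than narrow regions inside arms were, by an amount that differed between the RING1B lists. Overlap with RING1B was removed by the choice of members and of regions inside arms alike. Nearness was not, and the member closest to a RING1B peak lay 20 bp from it. With both lists, the median distance to the nearest RING1B peak was 164 kb for members and 131 kb for regions inside arms, and a peak lay within 50 kb of 450 members (23.3%) and of 866 regions inside arms (29.8%), a difference of -6.48 percentage points (-8.97 to -3.94). RING1B replicate 1 lay within 50 kb of 8.34% of members and 18.9% of regions inside arms (medians 612 and 377 kb). RING1B replicate 2 did so for 22.2% and 25.4% (medians 170 and 164 kb). When replicate 2 was left out, for the choice of members too, the median distance of members was 601 kb. A RING1B peak within 5 kb was found for 74 members (3.83%), against 294 regions inside arms (10.1%). The outer windows held 12.2% of autosomal RING1B replicate 1 peaks and 16.2% of replicate 2 peaks, in 14.7% of the euchromatic length. Density by itself changes these distances, and nearness to RING1B at equal density was not tested.

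EWSR1-FLI1 peaks were also farther from members. One lay within 50 kb of 173 members (8.96%), against 507 regions inside arms (17.4%), a difference of -8.48 points (-10.3 to -6.57). The median distances were 512 and 429 kb. EWSR1-FLI1 peaks were themselves sparser near ends, with 12.8% of the autosomal ones in 14.7% of the euchromatic length. A lower density by itself lengthens this distance, and nearness to EWSR1-FLI1 at equal density was not tested. Wide H2Aub1 regions stood nearer to members: one lay within 50 kb of 591 members (30.6%), against 564 regions inside arms (19.4%), a difference of 11.2 points (8.71 to 13.7), and the median distances were 187 and 987 kb. Wide regions were themselves denser near ends, with 37.3% of them in 14.7% of the euchromatic length. A higher density by itself shortens this distance, and nearness at equal density was not tested. All these intervals count regions as if they were independent, which neighbours in a run are not, and the EWSR1-FLI1 list has no replicate.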

How the data were processed

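Chromatin immunoprecipitation with sequencing gave 1 peak list per sample. Bowtie and the builds hg19 and mm9 are named in the submitters' processing notes, the authors' peak names begin with MACS, and versions, filters, use of inputs and the role of mm9 are not given in the sources used here. Scores of peaks are the authors' deposited values on a scale that is not stated, and they were used only to describe and rank peaks within a list. Lists were read as hg19 intervals, checked against hg19 chromosome lengths from GenomeInfoDb 1.38.1, and printed 1-based.

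Peaks were merged where they shared at least 1 bp, with Python 3.11.15, numpy 2.4.6 and scipy 1.17.1, and the merging was tested on simulated data. Bands, arms and euchromatic length (all bands but acen, gvar and stalk) came from the hg19 band table of circlize 0.4.16. Protein-coding genes were counted per chromosome in RefSeq's GRCh38.p14 annotation. No hg19 genome or annotation was used here, so neither sequences nor genes of regions are given. The depth is unknown, and intervals (Wilson, Newcombe, 95%) cover counting error over regions only.

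The members, lists and comparisons were chosen with earlier results of these data known. Named regions are the 10 with the highest mean score rank in both replicates, the 2 on each side of each limit, the 5 fullest runs with a tie for the fifth, and the 5 fullest and 5 emptiest ends. Alternatives changed the replicates used, the overlap, the score cut-off, the width and distance limits and the exclusion. Values by single list for regions inside arms were added after seeing the data.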

Additional observations from a re-analysis of the deposited data

How the results depend on the processing

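No paired analysis was possible because the results come from peak lists without a test. Over 9 results and 11 alternatives, 48 of 94 values stayed within 1.5 times the count or within the spread between the replicates' single-list values and 46 moved. These are values of the members alone, which have no direction, and the differences from regions inside arms were not recomputed under the alternatives, except spacing in each H2Aub1 list alone and distances to each RING1B list. The exclusion settings do not enter the share of single-replicate peaks.

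Leaving out 1 replicate of H2Aub1 or RING1B at a time, the number of regions (1931) ran between 1939 and 8353, their share in the outer windows (39.9%) between 37.8 and 39.9%, the share with a neighbour within 50 kb (81.0%) between 80.97 and 94.9%, the median distance to the nearest member (7.73 kb) between 1.33 and 7.73 kb, the share in Giemsa-negative bands (83.6%) between 81.1 and 83.8%, the share at q ends (61.1%) between 61.0 and 63.6%, the median RING1B distance (164 kb) between 159 and 601 kb, and the median score percentile (65.4) between 50.1 and 65.8. The 601 kb came without RING1B replicate 2.

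With the highest-scoring 50% of each list there were 1018 regions, 69.3% with a neighbour within 50 kb, 20.3 kb median distance, 82.5% in Giemsa-negative bands, 59.4% at q ends, 37.9% of single-replicate peaks near ends and a score percentile of 81.4. With 2 kb or less there were 961 regions, 61.3% with a neighbour, 32.1 kb, 83.5% Giemsa-negative and a percentile of 50.5. With 10 kb or less the values were 5.34 kb, 83.2% Giemsa-negative and a percentile of 68.5. With 50% overlap they were 6.43 kb, 83.1% and 67.6. Within 5 Mb of an end, 28.4% of narrow regions and 24.8% of single-replicate peaks were counted, 85.7% had a neighbour, 90.6% were Giemsa-negative, RING1B was 149 kb away and the percentile was 66.3. Within 20 Mb, 53.9% and 51.3% were counted, 73.8% had a neighbour at a median of 9.62 kb, and 77.7% were Giemsa-negative. With no exclusion, 38.3% lay in the outer windows and RING1B was 146 kb away.

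The cause of these moves was not tested beyond what each setting does by construction. Both H2Aub1 lists come from 1 cell line, replicate 2 is the shorter list, and read depth and inputs were not analysed here, so that an end with few regions is an end with few called peaks and no more.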
